A study of Mus musculus with 24 samples.

Results

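Potassium channel genes are the genes whose array name begins with Kcn followed by a subfamily letter code and a number. They encode the pores, and several of the accessory subunits, through which potassium ions leave or enter a cell. Genes were selected on detection: a gene was included if, within 1 group or more, the scanner software had marked a probe of it as well above background on 6 arrays or more out of 8. By this rule 63 of 170 probes and 43 of 92 names on the array were included, among 19939 gene names measured in all. The genes were thus chosen by their signal over background, and their detection is described without a test.

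Skeletal muscle RNA of mice was hybridised to 24 one-colour Agilent arrays, 8 for each of 3 groups. HFD_O3 mice were of the omega-3 lineage and received the high fat diet. HFD_Cont mice were of the control lineage and received the high fat diet, and STD_Cont mice were of the control lineage and received the low fat control diet. An omega-3 lineage on the low fat diet was not analysed here, and the muscle, the age and sex of the mice, the length of the diets and the basis of the omega-3 lineage were not stated in the labels. The labels give replicate numbers without saying how the samples were taken, so each p-value measures the spread between these samples. Across arrays, 52.0 to 60.7% of spots were well above background, the signal at the 75th percentile was between 162 and 293, and 0 spots were saturated. All 7 fast fibre and 6 slow fibre markers were measured. On each array the fast fibre markers summed to between 7811 and 12403 times the 75th percentile signal, and the slow fibre markers to between 678 and 2109 times. The slow fibre marker Myh7, in log2 units from the 75th percentile, ran from 6.21 to 7.69 in HFD_O3, 1.91 to 8.52 in HFD_Cont and 6.34 to 8.73 in STD_Cont. The brightest slow fibre marker, Myl3, ran only from 9.37 to 9.83 in HFD_Cont, so the summed signal varied less between arrays than Myh7 did. The part of slow fibre content in the values below was not tested. Markers of other cell types in muscle, such as 6 of 6 endothelial and 8 of 8 white adipocyte genes, were measured too. The adipocyte marker Adipoq, in the same units, ran from −0.55 to 5.01 in HFD_O3, 0.47 to 4.72 in HFD_Cont and −0.85 to 3.58 in STD_Cont. Between HFD_Cont and STD_Cont it differed by 1.47 ± 0.80 (limma adjusted p = 0.375, as defined below). Plin4, of the same list, went the other way, at −0.72 ± 0.15 (limma adjusted p = 0.0168). Of the 8 adipocyte markers, 1 was lower and 0 higher past the threshold in that comparison, beside 2.91% of all names called.

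In a muscle fibre, inward rectifiers of the Kcnj group help hold the resting membrane potential near the potassium equilibrium, and voltage-gated channels repolarise the membrane after each action potential. ATP-sensitive channels, with Kcnj11 pores in the fibre and Kcnj8 pores in blood vessels, open when cell energy falls, and calcium-activated channels open as calcium rises. Tandem-pore channels of the Kcnk group carry a steady leak. Whole muscle also holds nerve, Schwann cells and vessels that use their own channels, and in such RNA fewer cells of a type and less RNA per cell cannot be told apart.

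The probes behind the results below are shown because each value is the signal of 1 or a few 60-base oligonucleotides and depends on where in the transcript they bind. Positions are on mouse mm9, from the array's own annotation, and capitals mark the polyadenylation signal AATAAA or ATTAAA. Kcnab1 was read by 1 detected probe at chr3:65182004-65182063 on the plus strand. Kcnc1 was read by 3 probes on the plus strand, the brightest at chr7:53688622-53688681. Kcnc4 was read by 2 probes on the minus strand, the brighter at chr3:107241564-107241623. The Kcna6 probe lies at chr6:126658424-126658483 and the Kcna1 probe at chr6:126586524-126586583, both on the minus strand.
Kcnab1: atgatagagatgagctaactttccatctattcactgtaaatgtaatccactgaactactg
Kcnc1, brightest: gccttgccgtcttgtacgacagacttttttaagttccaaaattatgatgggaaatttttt
Kcnc1, next: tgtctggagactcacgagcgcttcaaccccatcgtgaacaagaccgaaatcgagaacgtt
Kcnc1, dimmest: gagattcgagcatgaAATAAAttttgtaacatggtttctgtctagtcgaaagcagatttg
Kcnc4, brighter: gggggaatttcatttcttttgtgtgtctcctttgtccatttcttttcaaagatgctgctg
Kcnc4, other: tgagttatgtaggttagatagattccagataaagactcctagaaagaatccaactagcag
Kcna6: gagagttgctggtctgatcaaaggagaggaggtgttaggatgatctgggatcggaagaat
Kcna1: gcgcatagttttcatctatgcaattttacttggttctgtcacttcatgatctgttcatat
The last Kcnc1 probe was the one of these 8 that held a polyadenylation signal.

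Detection was counted by subfamily. Of the voltage-gated pore subunits 22 of 40 names were detected, among them Kcna1, Kcna2, Kcna5, Kcna6, Kcna7, Kcnc1, Kcnc4, Kcnd1, Kcnd3, Kcnf1, Kcng2, Kcng4, Kcnh3, Kcnh4, Kcnh6, Kcnq1, Kcnq5, Kcns1 and Kcns3. Of their auxiliary subunits 5 of 11 were detected, namely Kcnab1, Kcne3, Kcne4, Kcnip1 and Kcnip3. The inward rectifiers Kcnj2, Kcnj8, Kcnj11, Kcnj12, Kcnj13 and Kcnj14 were 6 of 15 names on the array. The leak channels Kcnk4, Kcnk6, Kcnk15 and Kcnk16 were 4 of 14 names. The calcium- or sodium-activated group was 6 of 12, with Kcnma1, Kcnn1, Kcnn2, Kcnn3, Kcnn4 and Kcnu1. Subfamilies were formed by name prefix, so Kcnu1 is placed in this group by its name and not by what opens its channel. Among names that did not pass were Kcna4, Kcnh2, Kcnj3, Kcnj5, Kcnk2, Kcnk3, the 4 BK beta subunits Kcnmb1 to Kcnmb4 and the sodium-activated Kcnt1 and Kcnt2, for which these arrays give only a bound.

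**Figure D1:**
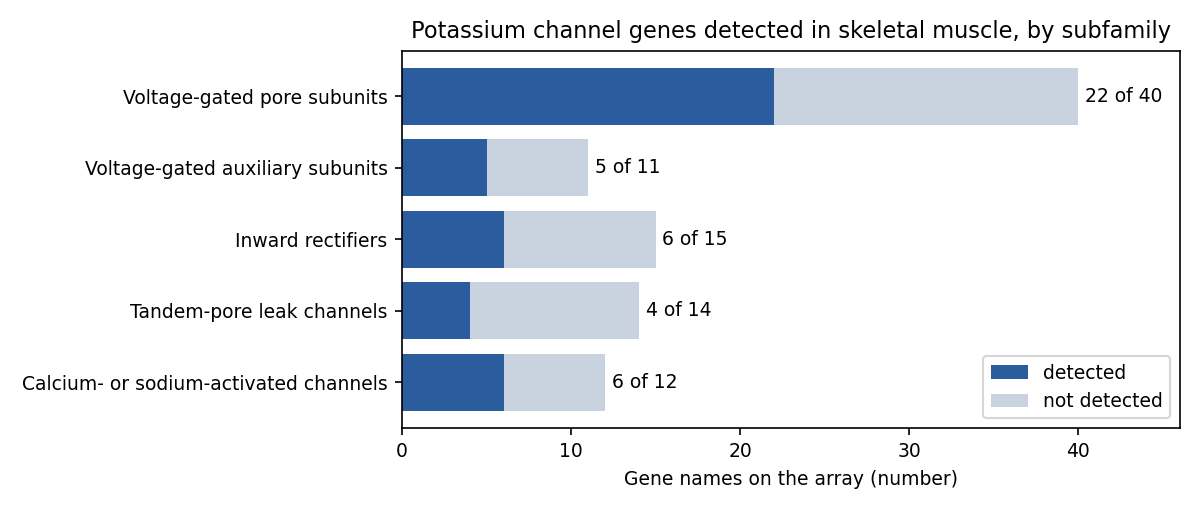
Number of potassium channel gene names on the array (bar length) that were detected (dark) or not detected (pale), by subfamily. The voltage-gated pore subunits had 22 of 40 names detected and the tandem-pore leak channels 4 of 14.

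Most included genes were detected throughout. By the probe that represents each gene, the brightest, 31 of 43 were well above background on all 24 arrays and 37 passed the detection rule in all 3 groups. The other 6 passed in some groups only, so a difference in their level was partly fixed by the rule: Kcna2, Kcne3, Kcnj14, Kcnn3, Kcnq1 and Kcns1. Kcne3, for instance, was above background on 6 of 8 HFD_O3, 8 of 8 HFD_Cont and 4 of 8 STD_Cont arrays. Just inside the threshold were Kcna2, above background on 3 HFD_O3, 4 HFD_Cont and 6 STD_Cont arrays, and Kcnn3, on 6 HFD_O3, 5 HFD_Cont and 5 STD_Cont arrays. Just outside was Kcnk1, on 1 HFD_O3, 1 HFD_Cont and 5 STD_Cont arrays.

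Levels below are log2 processed signal minus the 75th percentile of the same array, so that 0 is the 75th percentile and 1 unit is a doubling of signal. Differences are log2 differences of group means with their moderated standard error (SE, n = 8 arrays per group) from limma, and adjusted p-values are Benjamini-Hochberg values over all 19939 names with a threshold of 0.05. Any 2 of the 3 comparisons share a group, so values of the comparisons are not independent of each other.

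The first comparison asks about the high fat diet within the control lineage. Between HFD_Cont and STD_Cont, 0 of 43 potassium channel genes passed the limma threshold, beside 2.91% of all gene names (581 of 19939), of which 1.43% were higher and 1.48% lower. At an unadjusted p under 0.05 stood 11 of the 43 genes, 6 higher and 5 lower in HFD_Cont, which is 25.6% beside 16.6% of all names, and the smallest adjusted p was 0.0652. The 6 higher genes include Kcne3 and Kcnj14, which passed detection in some groups only, so their place in the count was partly fixed by the detection rule. The median difference of the 43 genes was 0.02 and their median absolute difference 0.125, beside 0.00 and 0.0866 for all names. By subfamily these were 7 of 22 voltage-gated pore subunits, 2 of 5 auxiliary subunits and 2 of 6 inward rectifiers. They were 0 of 4 leak channels and 0 of 6 in the calcium- or sodium-activated group. With so few genes in a subfamily, and 16.6% of all names at this p, the counts cannot tell whether subfamilies differ, which was not tested.

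**Figure D2:**
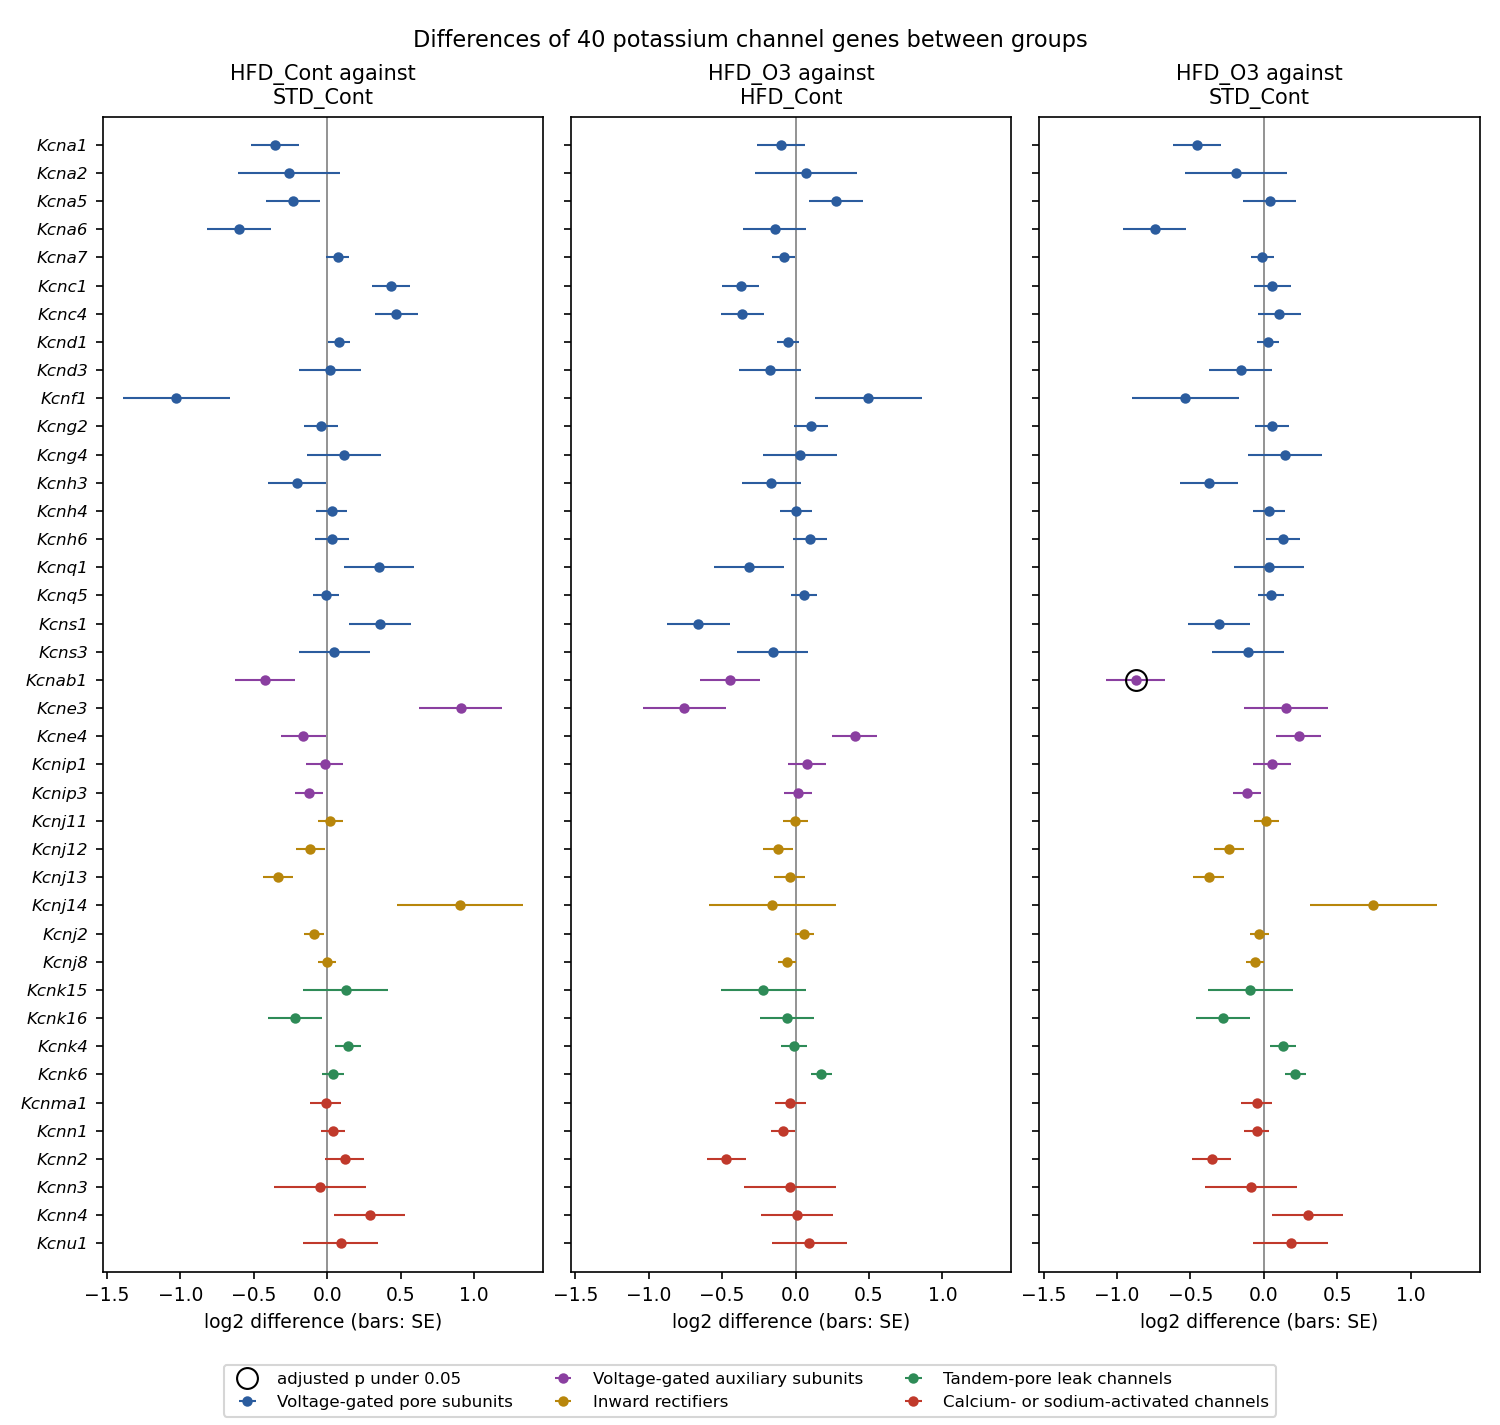
Log2 difference of 40 potassium channel genes (points, coloured by subfamily, with SE bars) for HFD_Cont against STD_Cont, HFD_O3 against HFD_Cont and HFD_O3 against STD_Cont. Most points lie near 0, and the circled gene, Kcnab1 at −0.87 in HFD_O3 against STD_Cont, is the one with an adjusted p under 0.05.

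The Kcnc genes encode high-threshold pores that open and close fast and allow rapid repolarisation. Kcnc1 had a lowest, median and highest level of 3.64, 3.85 and 4.08 in HFD_Cont, against 3.09, 3.41 and 3.74 in STD_Cont. All 8 HFD_Cont arrays lay above the STD_Cont median, although the groups overlapped between 3.64 and 3.74. The difference was 0.43 ± 0.13 (adjusted p = 0.0652), with 0.43, 0.70 and 0.23 on slides 1, 2 and 3, and the 3 Kcnc1 probes shown above gave 0.31 to 0.55. Kcnc4, a pore whose current inactivates fast, had 1.75, 2.13 and 2.64 in HFD_Cont, against 1.20, 1.73 and 2.18 in STD_Cont. Its difference was 0.47 ± 0.15 (adjusted p = 0.0847), with 0.52, 0.48 and 0.50 on the 3 slides, and its probes gave 0.43 and 0.47. The probe with 0.43 was dim, with means of −3.06 in HFD_Cont and −3.48 in STD_Cont. It was above background on 8 of 8 HFD_Cont and 6 of 8 STD_Cont arrays. The adjusted p of Kcnc4 was 0.0416 with slide as a fixed block, 0.105 with slide as a random block and 0.173 with slide and array row as blocks.

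Kcnf1, Kcng2, Kcng4, Kcns1 and Kcns3 encode electrically silent subunits that form no channel alone and modify the pores they join. Kcnf1 had a lowest, median and highest level of −3.88, −2.44 and −1.83 in HFD_Cont, against −2.59, −1.45 and −1.22 in STD_Cont. All 8 HFD_Cont arrays were below the STD_Cont median, and the groups overlapped through STD_Cont replicate 6 alone at −2.59. The Kcnf1 difference of −1.03 ± 0.36 was the lowest among the 43 genes in this comparison and did not pass the threshold (adjusted p = 0.127). The other silent subunits gave 0.36 ± 0.21 for Kcns1, 0.11 ± 0.25 for Kcng4, 0.05 ± 0.24 for Kcns3 and −0.05 ± 0.12 for Kcng2.

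Kcne3 encodes a single-span accessory subunit that partners Kcnc4 in skeletal muscle and Kcnq1 in epithelia. Its lowest, median and highest levels were −3.62, −2.998 and −1.20 in HFD_Cont, against −4.12, −3.57 and −2.83 in STD_Cont. HFD_Cont replicates 7 and 8, at −1.43 and −1.20 and both on slide 3, stood apart from the other 22 arrays, of which the highest was −2.83. The difference was 0.91 ± 0.28 (adjusted p = 0.0834), with 0.54 and 0.37 on slides 1 and 2 and 1.72 on slide 3. The inward rectifier Kcnj14, also a gene that passed detection in some groups only, differed by 0.90 ± 0.43 (adjusted p = 0.293).

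Kcna1 and Kcna6 encode low-threshold pores, known mainly from axons, that dampen excitability, and Kcnab1 encodes a beta subunit that binds Kcna pores and can give them fast inactivation. Kcna6 had −0.79, 0.02 and 0.55 in HFD_Cont, against 0.01, 0.29 and 1.32 in STD_Cont, a difference of −0.60 ± 0.22 (adjusted p = 0.131). Kcna1 had −1.23, −0.76 and −0.27 in HFD_Cont, against −1.03, −0.42 and 0.15 in STD_Cont, a difference of −0.36 ± 0.16 (adjusted p = 0.268). For Kcna6, 7 of 8 HFD_Cont arrays lay below the STD_Cont median, and for Kcna1, 6 of 8. Both differences were largest on slide 1, at −1.30 and −0.71, and small on slide 3, at −0.08 and −0.09. Kcnab1 differed by −0.43 ± 0.20 (adjusted p = 0.294). The vascular and muscle pore Kcna5, whose gene lies in the same cluster on chromosome 6, differed by −0.23 ± 0.18, and Kcna7, a pore expressed mainly in skeletal muscle and heart, by 0.07 ± 0.08.

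Kcnj13, a weak inward rectifier known mainly from epithelia, had −3.01, −2.47 and −2.11 in HFD_Cont, against −2.40, −2.11 and −1.91 in STD_Cont. It was lower by mean on slides 1 and 3 (−0.43 and −0.57) and not on slide 2 (0.14), with −0.34 ± 0.10 over all arrays (adjusted p = 0.0824). In the RefSeq table the span of Kcnj13 overlaps that of Gigyf2. Kcnj13 is not alone in this: 3 entries overlap the span of Kcnab1 and 6 that of Kcnn2, against 0 for Kcnc1 and 0 for Kcnc4.

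**Figure D3:**
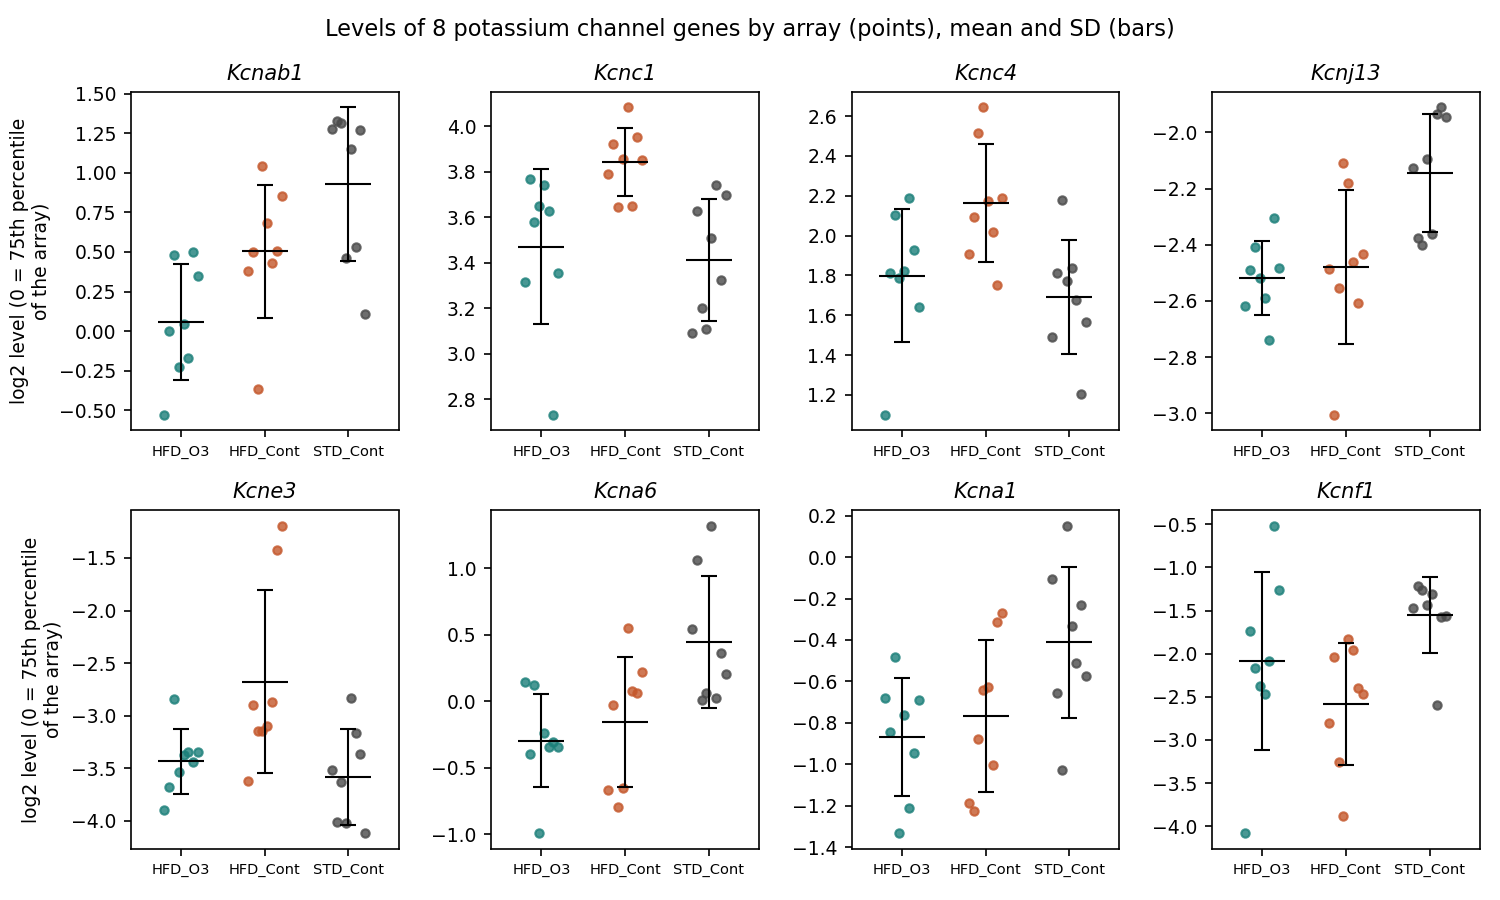
Level of Kcnab1, Kcnc1, Kcnc4, Kcnj13, Kcne3, Kcna6, Kcna1 and Kcnf1 on each of 24 arrays (points; log2 signal relative to the 75th percentile of the array), with group mean and SD (bars), for HFD_O3, HFD_Cont and STD_Cont. The groups overlap in every panel, the 2 high HFD_Cont arrays of Kcne3 lie at −1.43 and −1.20, and the 1 low STD_Cont array of Kcnf1 at −2.59.

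Kcnj2 and Kcnj12, strong inward rectifiers of the resting potential, differed between HFD_Cont and STD_Cont by −0.09 (95% interval −0.23 to 0.04) and −0.12 (−0.32 to 0.09). Kcnj2 levels were 4.25, 4.45 and 4.60 in HFD_Cont (lowest, median and highest), against 4.27, 4.53 and 4.69 in STD_Cont. The ATP-sensitive pores, chosen here after their values were seen, gave 0.02 (−0.16 to 0.19) for Kcnj11 and −0.00 (−0.13 to 0.12) for Kcnj8. The Kcnj11 value is that of its brightest probe, and a second, dimmer probe gave 0.18 ± 0.12. Kcnma1, the pore of the large-conductance calcium-activated channel, gave −0.01 (−0.23 to 0.20), and its 6 probes lay between −0.02 and 0.15. The small-conductance calcium-activated channel Kcnn1 gave 0.04 (−0.13 to 0.21). The 95% interval lay within 0.5 log2 units of 0 for 20 of the 43 genes and within 1 unit for 39, with a median half-width of 0.277 that was the same in the 3 comparisons.

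**Figure D4:**
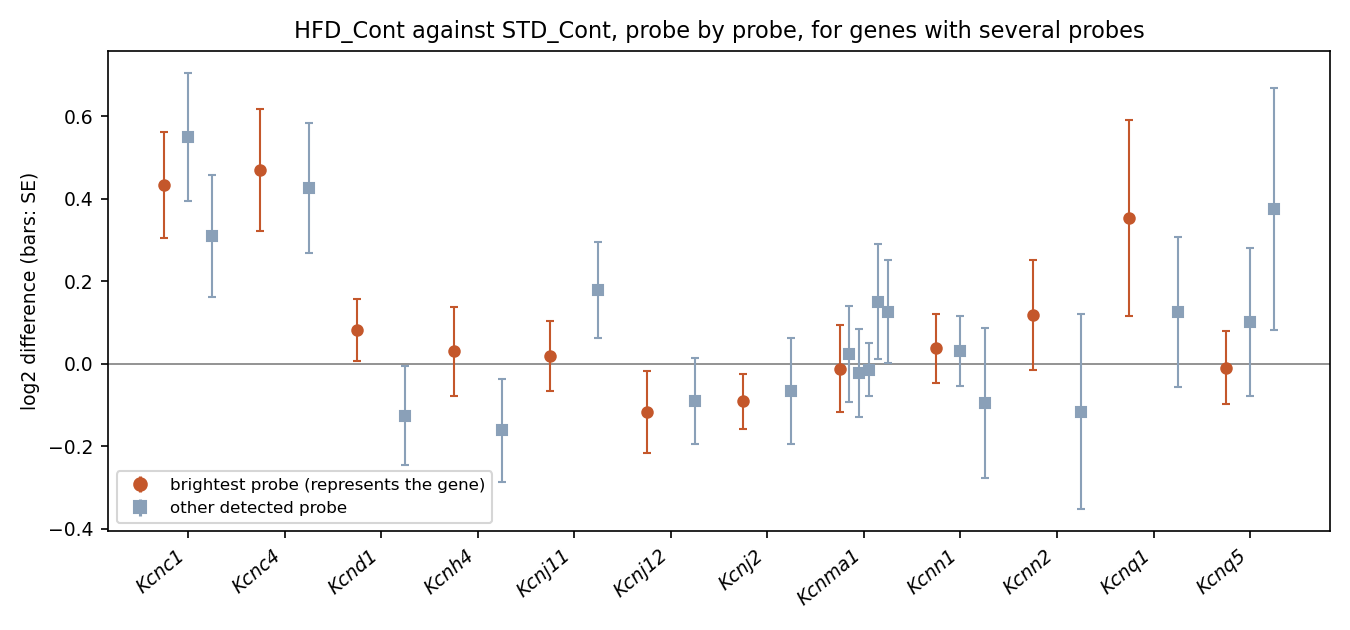
Log2 difference of HFD_Cont against STD_Cont for each detected probe (points, with SE bars) of 12 potassium channel genes with several probes; circles are the brightest probe of a gene and squares the others. The 3 probes of Kcnc1 lie between 0.31 and 0.55, and the 6 of Kcnma1 between −0.02 and 0.15.

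Of the 13 genes with several detected probes, 7 had all probes on the same side of 0 in HFD_Cont against STD_Cont, among them Kcnc1 and Kcnc4. The same held for 8 in HFD_O3 against HFD_Cont and for 7 in HFD_O3 against STD_Cont. The share over all 6305 names with several detected probes was not computed, so these counts are a description. In the first 2 of these counts Kcnq1 is included, whose 2 probes overlap in position and are not separate readings.

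The second comparison asks about the omega-3 lineage under the high fat diet. Between HFD_O3 and HFD_Cont, 0 of 43 potassium channel genes passed the limma threshold, beside 0% of all gene names (0 of 19939). At an unadjusted p under 0.05 stood 8 of the 43, 2 higher and 6 lower in HFD_O3, beside 1412 of all names (7.08%), and the smallest adjusted p of the 43 was 0.477. The 6 lower genes include Kcne3 and Kcns1, which passed detection in some groups only, so their place in the count was partly fixed by the detection rule. Their median difference was −0.05 and their median absolute difference 0.0983, beside −0.01 and 0.0719 for all names.

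Kcnn2 encodes a small-conductance calcium-activated channel that shapes the afterhyperpolarisation. Its brightest probe had a lowest, median and highest level of −1.51, −0.72 and −0.53 in HFD_O3, against −0.98, −0.33 and −0.19 in HFD_Cont. All 8 HFD_O3 arrays lay below the HFD_Cont median, and the groups overlapped through HFD_Cont replicate 6 at −0.98 and replicate 8 at −0.54. The difference was −0.47 ± 0.13 (adjusted p = 0.477), with −0.62, −0.39 and −0.55 on the 3 slides. The second Kcnn2 probe gave 0.08 ± 0.24, so the probes did not share a direction.

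Kcnc1 and Kcnc4 had lower means in HFD_O3 than in HFD_Cont, again without passing the threshold. Kcnc1 had 2.73, 3.60 and 3.77 in HFD_O3, against 3.64, 3.85 and 4.08 in HFD_Cont, and 8 of 8 HFD_O3 arrays lay below the HFD_Cont median. Its difference was −0.37 ± 0.13 (adjusted p = 0.615), and that of Kcnc4 was −0.36 ± 0.15 (adjusted p = 0.651). Kcne3 gave −0.76 ± 0.28 (adjusted p = 0.638), of which slide 3, with both high HFD_Cont arrays, gave −1.56. The silent subunit Kcns1, a gene that passed detection in some groups only, gave −0.66 ± 0.21 (adjusted p = 0.574). The values of these genes against STD_Cont, given above, rest on the same 8 HFD_Cont arrays.

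At an unadjusted p under 0.05, 2 genes had higher means in HFD_O3. Kcne4, an accessory subunit that restrains several voltage-gated pores, had −3.10, −2.91 and −2.30 in HFD_O3, against −3.45, −3.21 and −2.68 in HFD_Cont, a difference of 0.40 ± 0.15 (adjusted p = 0.638). The leak channel Kcnk6 had −0.78, −0.68 and −0.38 in HFD_O3, against −1.15, −0.84 and −0.57 in HFD_Cont, a difference of 0.18 ± 0.07 (adjusted p = 0.651). All 8 HFD_O3 arrays were above the HFD_Cont median for both genes, with overlap. Kcna5 gave 0.27 ± 0.18 and Kcnf1 0.49 ± 0.36, each with an unadjusted p over 0.05.

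The third comparison sets HFD_O3 against STD_Cont, which differ in both diet and lineage. Here 1 of 43 potassium channel genes passed the limma threshold, Kcnab1, and it was lower, beside 0.597% of all gene names called (119 of 19939), 0.406% higher and 0.191% lower. At an unadjusted p under 0.05 stood 7 of the 43, 1 higher and 6 lower in HFD_O3, beside 11.2% of all names. The median difference of the 43 genes was 0.02 and the median absolute difference 0.132, beside −0.02 and 0.0761 for all names.

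Kcnab1 had a lowest, median and highest level of −0.53, 0.02 and 0.50 in HFD_O3, −0.37, 0.50 and 1.04 in HFD_Cont, and 0.11, 1.21 and 1.33 in STD_Cont. All 8 HFD_O3 arrays were below the STD_Cont median, and the groups overlapped through STD_Cont replicates 8 (0.11) and 4 (0.46). Group means were 0.06 ± 0.37 in HFD_O3, 0.50 ± 0.42 in HFD_Cont and 0.93 ± 0.48 in STD_Cont (SD, n = 8 each). The Kcnab1 signal fell to 0.546 of its STD_Cont value in HFD_O3, a log2 difference of −0.87 ± 0.20 (95% interval −1.29 to −0.45, limma adjusted p = 0.0463). The fall measured −1.32, −1.09 and −0.22 on slides 1, 2 and 3. On slide 3 the HFD_O3 arrays were replicates 7 and 8 alone.

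The Kcnab1 call was near the threshold. With each array left out in turn the difference stayed between −0.99 and −0.79, and the call held in 8 of 24 fits: without HFD_Cont replicate 3 or 4, HFD_O3 replicate 3, 7 or 8, or STD_Cont replicate 4, 6 or 8. It was lost without any one of the other 16 arrays, with adjusted p-values up to 0.107, and with slide as a fixed block (−0.86, adjusted p = 0.0765).

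Kcna6, a pore that Kcnab1 can bind, had −0.99, −0.32 and 0.15 in HFD_O3, against 0.01, 0.29 and 1.32 in STD_Cont, and Kcna1 had −1.33, −0.80 and −0.48 in HFD_O3, against −1.03, −0.42 and 0.15 in STD_Cont. All 8 HFD_O3 arrays lay below the STD_Cont median for both genes, and neither passed the threshold. The differences were −0.74 ± 0.22 for Kcna6 (adjusted p = 0.122) and −0.46 ± 0.16 for Kcna1 (adjusted p = 0.246), of 1 sign on all 3 slides. Markers of Schwann cells, which ensheath axons, were read beside them. Their summed signal, over 6 of 6 measured markers and in multiples of the 75th percentile signal, had a lowest, median and highest value of 15.98, 20.6 and 29.5 in HFD_O3, 18.3, 23.5 and 73.4 in HFD_Cont, and 16.04, 32.3 and 69.2 in STD_Cont. The median was lower in HFD_O3 than in STD_Cont and the ranges overlapped. No Schwann marker passed the threshold, beside 0.597% of all names called in HFD_O3 against STD_Cont. At an unadjusted limma p under 0.05 in that comparison, 2 of the 6 Schwann markers were lower and 0 higher, beside 11.2% of all names. The median log2 difference of the 6 was −0.28. Neuronal markers, 3 of 4 measured and without Syt1, had a median of 38.9 in HFD_O3, 37.3 in HFD_Cont and 36.9 in STD_Cont. The part of nerve tissue in the Kcnab1, Kcna1 and Kcna6 values was not tested.

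Kcnj13 had −2.74, −2.50 and −2.31 in HFD_O3, against −2.40, −2.11 and −1.91 in STD_Cont, a difference of −0.37 ± 0.10 (adjusted p = 0.108). All 8 HFD_O3 arrays were below the STD_Cont median, and the overlap was between −2.40 and −2.31. Kcnn2 gave −0.35 ± 0.13 (adjusted p = 0.277) and Kcnj12 −0.24 ± 0.10 (adjusted p = 0.352). The highest-ranked gene in the other direction was Kcnk6, at 0.21 ± 0.07 (adjusted p = 0.205), with 8 of 8 HFD_O3 arrays above the STD_Cont median. Kcnj14 gave 0.75 ± 0.43, Kcne4 0.24 ± 0.15 and Kcnk4, a mechanically gated leak channel, 0.13 ± 0.09. Kcnip3, a calcium-binding subunit of Kcnd channels, gave −0.11 ± 0.10, and Kcnc1 and Kcnc4 gave 0.06 ± 0.13 and 0.11 ± 0.15.

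Whether subunits that assemble or belong together varied together was measured for 8 pairs over the 24 arrays, after each group's mean was removed. Kcna1 with its chromosomal neighbour Kcna6 gave Pearson r = 0.35 (permutation p = 0.118, adjusted over the 8 pairs 0.47) and Spearman rho = 0.37 (permutation p = 0.0917). Within slides 1, 2 and 3 the Pearson value was 0.36, 0.31 and 0.56, and without the 2 arrays farthest from the median it was 0.19. Kcnc4 with its partner Kcne3 gave r = −0.03 and Kcna1 with Kcnab1 gave 0.16. None of the 8 pairs had an adjusted permutation p under 0.05.

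Other genes that set the potassium current or membrane potential of muscle were read from a list of 37, of which 34 were measured. Between HFD_Cont and STD_Cont 1 of the 34 rose and 1 fell in limma, beside 2.91% of all names called, and 3 were higher and 3 lower at an unadjusted p under 0.05, beside 16.6% of all names. In the other 2 comparisons 0 passed. At an unadjusted p under 0.05 stood 1 of 34 in HFD_O3 against HFD_Cont, beside 7.08% of all names, and 4 of 34 in HFD_O3 against STD_Cont, beside 11.2%. Lrrc38, a gamma subunit of the Kcnma1 channel, had 1.69, 2.05 and 2.37 in HFD_Cont, against 0.74, 1.35 and 1.76 in STD_Cont, and rose by 0.67 ± 0.16 (adjusted p = 0.0286). Kcnma1 itself, as given above, differed by −0.01 in the same arrays. Ank3, the ankyrin that anchors sodium and potassium channels, had 5.32, 5.55 and 5.61 in HFD_Cont, against 5.70, 5.80 and 6.10 in STD_Cont. Ank3 levels of these groups did not overlap, and the difference was −0.32 ± 0.08 (adjusted p = 0.0246). The sulfonylurea receptors that complete ATP-sensitive channels gave 0.01 ± 0.05 for Abcc9 and −0.10 ± 0.16 for Abcc8. The muscle sodium channel Scn4a gave −0.01 ± 0.04 and the chloride channel Clcn1 0.02 ± 0.09.

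RefSeq promoter windows on GRCm38.p6, from 250 bases before to 50 after a gene's start, were found for 30 of the 43 genes, in 40 windows. The palindrome CACGTG, the E-box bound by clock and Myc-type factors, was in 6 windows of 5 genes (Kcnab1, Kcne4, Kcnh4, Kcnj2 and Kcnn4), beside 7.15% of all 32851 windows. The muscle-type E-box CAGCTG was in 13 windows of 12 genes, beside 16.3% of all windows, and the forkhead motif GTAAACA, searched on both strands, in none, beside 3.65%. Of 3 Kcnab1 windows, all on the plus strand, 2 held CACGTG, at chr3:65108764-65109063 and chr3:65187853-65188152. They are shown because Kcnab1 was the gene past the threshold, with the motif in capitals.
Kcnab1, first: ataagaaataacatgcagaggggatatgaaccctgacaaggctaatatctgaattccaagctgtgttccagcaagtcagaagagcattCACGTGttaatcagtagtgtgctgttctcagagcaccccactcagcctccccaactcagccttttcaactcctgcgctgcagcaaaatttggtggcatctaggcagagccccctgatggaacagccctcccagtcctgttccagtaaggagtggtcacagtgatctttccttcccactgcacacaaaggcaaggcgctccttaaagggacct
Kcnab1, second: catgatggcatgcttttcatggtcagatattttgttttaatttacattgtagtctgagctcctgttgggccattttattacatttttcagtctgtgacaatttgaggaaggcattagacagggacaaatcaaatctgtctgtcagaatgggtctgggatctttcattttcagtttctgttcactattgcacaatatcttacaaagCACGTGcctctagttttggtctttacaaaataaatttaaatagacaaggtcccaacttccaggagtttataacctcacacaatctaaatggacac
A match of letters is a description and shows no binding.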

How the data were processed

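Total RNA of 24 mouse skeletal muscle samples was labelled with Cy3 and hybridised to one-colour Agilent arrays on 3 slides of 8, per the labels' protocols. Per the file headers, Agilent Feature Extraction 10.10.1.1 turned the scans into a processed intensity for each spot, with background subtracted. A table of log2 values deposited by the authors served as an alternative. Limma is named for it in the submitters' processing notes, but its centring and probe filter were not stated there. Its 24 columns each matched their own array best (lowest correlation 0.9996).

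Without flagged spots, processed intensities were averaged over the spots of a probe, and each array's 75th percentile subtracted on the log2 scale. Of all probes 29249 passed the detection rule, and the brightest probe represented each of 19939 names. Groups were compared with limma 3.58.1 under R 4.3.3, in 1 two-sided lmFit and eBayes fit of all 24 arrays with no block. The arrays' number limits the precision. Same-numbered samples correlated at −0.15 to 0.36, over 0.1 in 6 of 24 pairs, and were not treated as pairs. Each slide held arrays of all groups, but rows within slides were not balanced: row 2 of slide 1 and row 1 of slide 2 held no STD_Cont array, and row 2 of slide 2 held no HFD_Cont array. Values on a single slide rest on few arrays. STD_Cont had replicates 1 and 2 alone on slide 1, HFD_Cont replicates 4 and 5 alone on slide 2, and HFD_O3 replicates 7 and 8 alone on slide 3.

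Named were genes past the threshold, the 5 smallest p-values in each direction and comparison, the 2 brightest probes of each subfamily, genes whose probes disagreed, genes whose detection differed by 5 or more of 8 arrays (there were 0), and fixed partner genes. The genes, the partner and marker lists and the tests were chosen with earlier results of these data known. A few genes covered by these rules and counts are not reported here. The fitting steps were tested on simulated data. Alternatives were normexp background correction (offset 50), other scalings, the deposited table, other filters and probe rules, slide, row or replicate number as blocks, only 2 groups, other variance models, an adipocyte covariate and left-out arrays. Figures were drawn with matplotlib 3.10.9.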

Additional observations from a re-analysis of the deposited data

Results flagged for a closer look

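In the 60 groups of 8 arrays formed by 20 named potassium channel genes, 6 held an array far from the other 7. For independent groups of normally distributed levels the rule flags about 1 in 20. These groups share the same 24 arrays, and their genes were named partly by p-values of these data. The count of 6 can therefore not be judged against that rate. Kcnab1 had its lowest HFD_Cont level in replicate 3, at −0.37 with the nearest array at 0.38. Kcnc1 was low in HFD_O3 replicate 7, at 2.73 with the nearest at 3.31. Kcnf1 was low in STD_Cont replicate 6, at −2.59 with the nearest at −1.57. Kcnk4 was low in HFD_Cont replicate 4, at −2.15 with the nearest at −1.86, and Kcnn2 was low in HFD_Cont replicate 6, at −0.98 with the nearest at −0.54. Kcnk6 was high in HFD_O3 replicate 4, at −0.38 with the nearest at −0.64.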

How the results depend on the processing

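In HFD_O3 against HFD_Cont, 0 of 43 genes passed in each of the 24 fits with an array left out and the 20 other settings run, in which 0 to 1 of all names passed. In HFD_Cont against STD_Cont, where 0 passed, 2 passed with the deposited table (Kcnc1 among them), 2 with only the 2 groups compared (Kcnc1 and Kcnf1), 2 with array weights (Kcnc1 and Kcnc4) and 3 without HFD_O3 replicates 1 and 7 (Kcnc1, Kcnc4 and Kcnf1). Kcnc4 alone passed, 1 gene, with the mean of a gene's probes and with slide as a fixed block. The replicate block also gave 1 call there (Kcnc4) and 0 in HFD_O3 against STD_Cont. Left-out arrays gave 0 to 1 calls. In HFD_O3 against STD_Cont, where Kcnab1 passed, the count was 0 under quantile and median scaling, no filter, slide as a fixed block, slide and row as blocks, each slide alone, only the 2 groups compared, array weights, removal of HFD_O3 replicates 1 and 7 and the adipocyte covariate, and 0 to 1 with left-out arrays. Apart from left-out arrays, Kcnab1 kept its call in 6 of 19 settings and its direction in all of them (−1.32 to −0.22). Over the 26 gene results and their settings, 1064 of 1112 values kept direction and side of the threshold, 29 lost and 18 gained a call. The value that reversed was Kcnj13 in HFD_Cont against STD_Cont on slide 2 alone (0.14). Over all names, the 581 calls in HFD_Cont against STD_Cont ranged from 182 to 977 with left-out arrays and from 0 to 1238 in the other settings, and the 119 in HFD_O3 against STD_Cont from 68 to 343 and from 0 to 174. The cause of these shifts was not tested. Dim genes such as Kcne3, Kcnj14, Kcnf1 and Kcns1 had wide intervals, and 12 of the 43 genes were not above background on every array.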
